A study of Brachypodium distachyon with 4 samples.

Results

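Transcripts of 6 cellulose synthase genes were followed in leaves of the grass Brachypodium distachyon. The genes were CESA4 (BRADI_3g28350v3), CESA7 (BRADI_4g30540v3) and CESA8 (BRADI_2g49912v3), which are assigned to the secondary wall, and CESA1 (BRADI_2g34240v3), CESA3 (BRADI_1g54250v3) and CESA6 (BRADI_1g53207v3), which are assigned to the primary wall. They were chosen by locus, with earlier results of these data known. All 6 identifiers were present among the 35125 loci of the count table, and all 6 were among the 21456 genes with enough reads to test. The gene names and their classes are published assignments that the count table does not state.

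Leaves of jmj1-1 plants were set against those of the wild-type inbred line Bd21-3, with 2 libraries of each genotype. Both genotypes were sampled on day 17 as seedlings with 4 leaves, 10 h after lights on, with the lights on for 20 h and off for 4 h a day. The labels give Bd21-3 as the source of the jmj1-1 plants too, and name no treatment or transgene. JMJ names belong to JmjC-domain proteins, many of which are histone demethylases. The mutant is represented by a single allele. The labels give neither the kind of mutation nor the number of plants in a library.

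Cellulose is made at the plasma membrane by complexes whose catalytic subunits are CESA proteins. In flowering plants a complex is built from 3 different kinds of CESA. One trio, known from Arabidopsis as the CESA1, CESA3 and CESA6 kinds, makes the thin wall of growing cells. Another, CESA4, CESA7 and CESA8, makes the thick secondary wall of xylem vessels and fibres, where lignin is also laid down. In a grass leaf, secondary walls are found mainly in the veins and the fibre strands beside them, while every growing cell makes a primary wall.

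Depth was 16089629 and 13825916 counted reads in the jmj1-1 libraries and 16520046 and 16130508 in the Bd21-3 libraries. The 6 genes together took 0.211% and 0.205% of all reads in jmj1-1 and 0.170% and 0.178% in Bd21-3. Levels are given as CPM, the usual depth-scaled counts, after TMM scaling of the libraries. CPM is not divided by transcript length, and no length was matched to these loci, so levels are compared between genotypes and not between genes. In these bulk leaf samples, more cells of a type cannot be told apart from more RNA per cell. No table used here joins the identifiers to descriptions, so neither the leaf label nor the transcript of JMJ1 itself could be checked.

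All 6 cellulose synthase genes rose in jmj1-1, those of the primary wall as well as those of the secondary wall. The rises were small, between 1.10-fold at CESA3 and 1.28-fold at CESA6. Both jmj1-1 libraries lay above both Bd21-3 libraries at each of the 6 genes. The largest of the 6 rises was at CESA6, a primary-wall gene. Calls are at an adjusted p of 0.05 in edgeR's quasi-likelihood test of jmj1-1 against Bd21-3, adjusted by Benjamini-Hochberg over the 21456 genes tested.

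Among all tested genes 13.9% were called, with 6.13% higher and 7.75% lower in jmj1-1. The 6 cellulose synthase genes are abundant transcripts, and small changes are called more often where there are many reads. Of the 908 genes with a mean of at least 164.1 CPM, the mean of CESA4 and the lowest of the 6, 47.5% were called, with 11.8% higher and 35.7% lower. Both jmj1-1 libraries exceeded both Bd21-3 libraries at 25.5% of all tested genes and at 24.3% of those 908.

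Among the secondary-wall genes, CESA4 encodes a subunit required for secondary-wall cellulose in Arabidopsis and rice. CESA4 stood at 183.5 and 174.9 CPM in jmj1-1, against 145.7 and 152.3 CPM in Bd21-3. The lower jmj1-1 library was thus well above the higher Bd21-3 library. The log2 change was 0.27 (SE 0.047, 95% interval 0.17 to 0.36, edgeR adjusted p = 1.42e-05), or 20.4% higher in jmj1-1. The reads behind it were 2992 and 2471 in jmj1-1 and 2358 and 2410 in Bd21-3.

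CESA8, another subunit of the same complex, stood at 326.1 and 296.6 CPM in jmj1-1, against 253.5 and 260.5 CPM in Bd21-3. The jmj1-1 libraries differed from each other more than the Bd21-3 libraries did, and the genotypes did not overlap. The log2 change was 0.28 (SE 0.043, 95% interval 0.19 to 0.36, edgeR adjusted p = 1.37e-06).

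CESA7, the remaining secondary-wall subunit, stood at 225.1 and 212.0 CPM in jmj1-1, against 194.8 and 198.8 CPM in Bd21-3. The gap between the genotypes was narrower than at CESA4 and CESA8. The log2 change was 0.15 (SE 0.045, 95% interval 0.06 to 0.24, edgeR adjusted p = 0.012), or 11.1% higher. This call was lost without jmj1-1 replicate 1, where the log2 change was 0.11 (adjusted p = 0.37). It was also lost in DESeq2 (adjusted p = 0.105), without the expression filter (0.088) and with TMM factors squared (0.154), against a lowest adjusted p of 3.33e-04 among the alternatives.

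**Figure D1:**
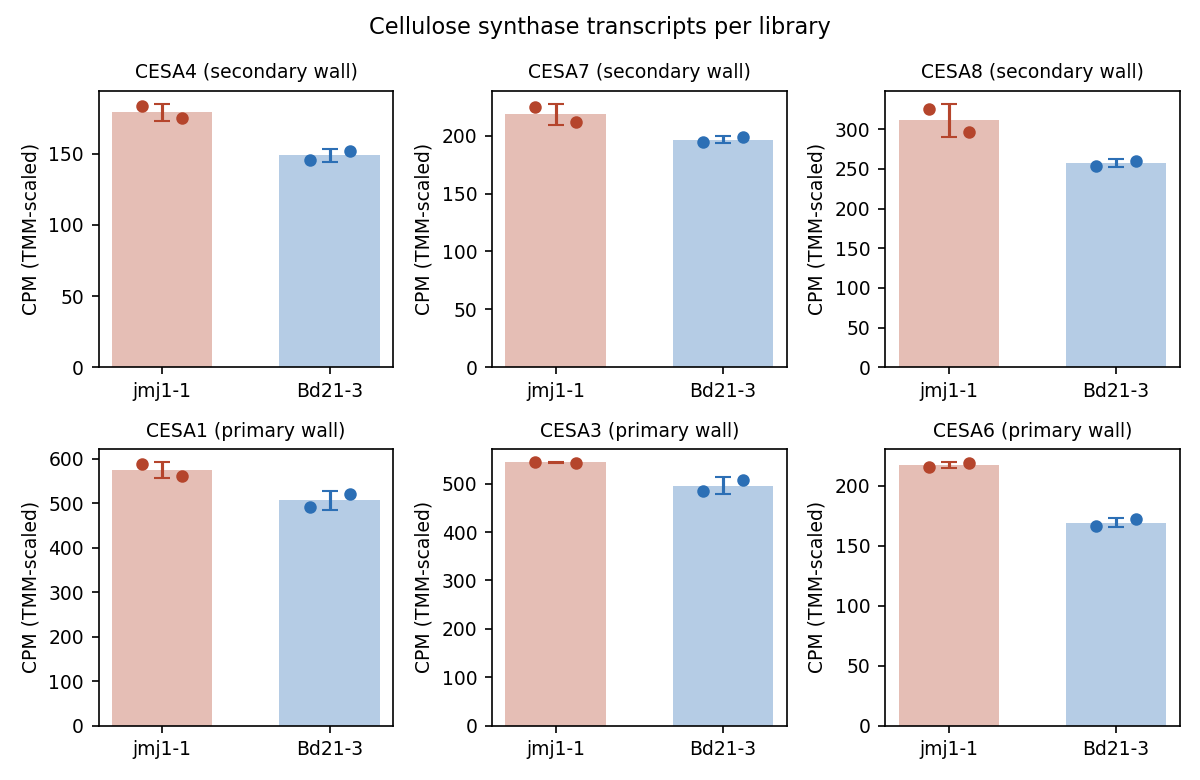
TMM-scaled CPM of the 6 cellulose synthase genes in jmj1-1 (left in each panel, red) and Bd21-3 (right, blue). Points are libraries, bars are means and error bars are the SD of 2 libraries; in each panel both jmj1-1 points lie above both Bd21-3 points, from 1.10-fold between the means fitted for CESA3 to 1.28-fold for CESA6.

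Of the primary-wall genes, CESA6 differed most. Its product belongs to the subunit kind that in Arabidopsis has several partly interchangeable relatives. CESA6 stood at 215.3 and 218.8 CPM in jmj1-1, against 166.4 and 172.1 CPM in Bd21-3. The libraries of each genotype lay close together and far from those of the other. The log2 change was 0.36 (SE 0.045, 95% interval 0.27 to 0.45, edgeR adjusted p = 5.00e-09), or 28.3% higher. Among all tested genes, 9.42% had a higher log2 change than CESA6. That share was 13.0% for CESA8, 13.6% for CESA4, 20.0% for CESA1, 23.4% for CESA7 and 26.0% for CESA3.

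CESA1, whose Arabidopsis counterpart is required for primary-wall cellulose, stood at 587.2 and 562.3 CPM in jmj1-1, against 491.4 and 521.7 CPM in Bd21-3. The genotypes did not overlap, and the SD between libraries was 17.6 CPM in jmj1-1 and 21.4 CPM in Bd21-3. The log2 change was 0.18 (SE 0.039, 95% interval 0.10 to 0.26, edgeR adjusted p = 3.36e-04). Without jmj1-1 replicate 1 it was 0.15 and the call was lost (adjusted p = 0.071, the highest of the alternatives, against a lowest of 3.78e-07).

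CESA3, the other obligate primary-wall subunit in Arabidopsis, stood at 544.1 and 543.2 CPM in jmj1-1, against 483.9 and 507.8 CPM in Bd21-3. The jmj1-1 libraries were nearly equal, and the spread lay in Bd21-3. The log2 change was 0.13 (SE 0.038, 95% interval 0.06 to 0.21, edgeR adjusted p = 0.011), the smallest of the 6. The call was lost without jmj1-1 replicate 1 (adjusted p = 0.144), without jmj1-1 replicate 2 (0.115) and without Bd21-3 replicate 1 (0.097, at a log2 change of 0.10). It was also lost without the expression filter (0.069) and with TMM factors squared (0.199, at 0.08), against a lowest adjusted p of 1.22e-04 among the alternatives.

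The median log2 change was 0.27 over the 3 secondary-wall genes, 0.18 over the 3 primary-wall genes and 0.22 over all 6. Over all tested genes the median was 0.0033, and over the 908 genes at the level of these transcripts or above it was -0.05. The 95% interval of CESA6 did not overlap those of CESA7, CESA1 and CESA3. The difference between genes was itself not tested.

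**Figure D2:**
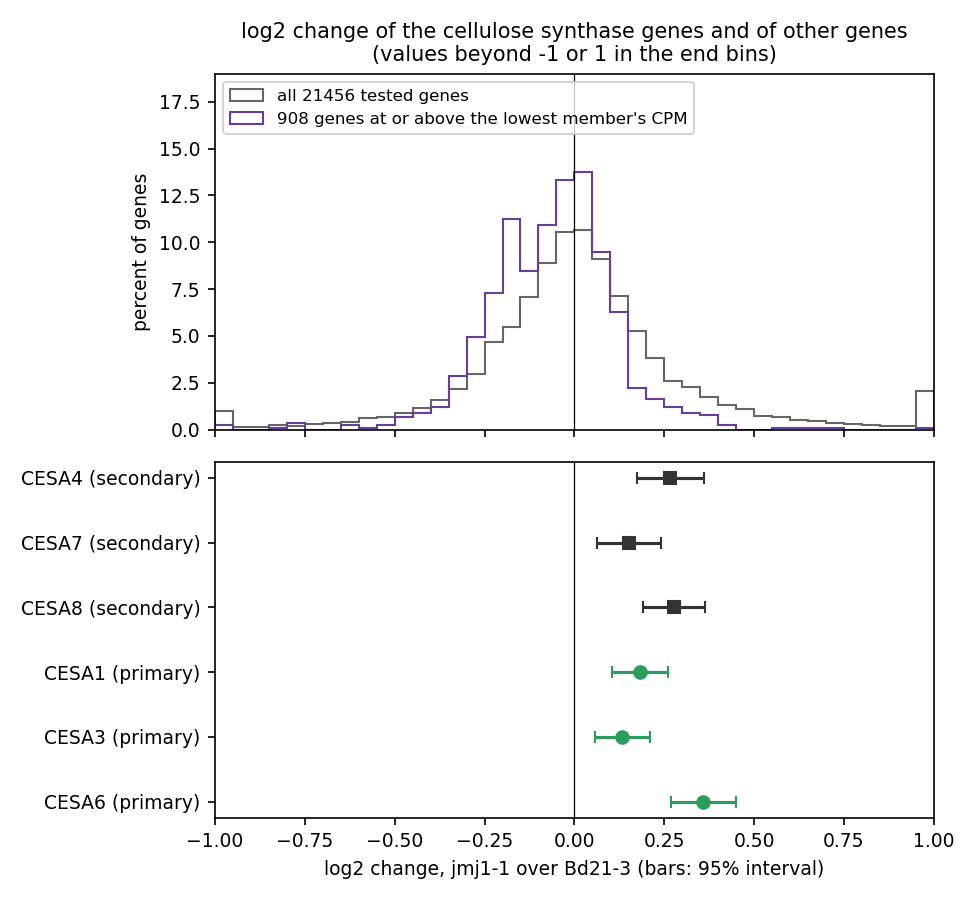
Top, distribution of the log2 change of jmj1-1 over Bd21-3 across all 21456 tested genes (grey) and the 908 genes with a mean CPM at or above that of CESA4 (purple), in percent of genes per bin. Bottom, log2 change of each cellulose synthase gene with its 95% interval; the 6 intervals lie above 0, from 0.13 at CESA3 to 0.36 at CESA6, and the primary-wall genes span the secondary-wall genes.

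Ratios between genes within a library do not depend on how libraries are scaled, and they place the classes against each other. The ratio of secondary-wall to primary-wall reads, taken as geometric means over 3 genes each, was 0.581 and 0.548 in the jmj1-1 libraries and 0.567 and 0.557 in the Bd21-3 libraries. The jmj1-1 libraries lay on either side of both Bd21-3 libraries. On the log2 scale the ratio was -0.83 ± 0.059 in jmj1-1 and -0.83 ± 0.017 in Bd21-3 (SD, n = 2 each), a difference of 0.0057. This mean joins genes that differ both ways, and it depends on which are included. Without CESA6 the ratio was 0.421 and 0.402 in jmj1-1, against 0.396 and 0.387 in Bd21-3, so that the genotypes no longer overlapped, at a log2 difference of 0.073. Without CESA3 the log2 difference was -0.040, and the genotypes overlapped there and with any of the other 4 genes left out. With 2 libraries against 2, an exact permutation test could not have given a two-sided p below 0.333.

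Counted as sums, secondary-wall genes held 35.3% and 34.0% of the reads of the 6 genes in jmj1-1, against 34.2% and 33.7% in Bd21-3. The exact 95% Clopper-Pearson intervals were 34.8% to 35.8% and 33.5% to 34.6% in jmj1-1, and 33.7% to 34.8% and 33.2% to 34.3% in Bd21-3. The interval of jmj1-1 replicate 1 lay above those of both Bd21-3 libraries, narrowly so for Bd21-3 replicate 1, and that of jmj1-1 replicate 2 overlapped both. These intervals cover counting error only.

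Shares of reads within each class describe how its genes stood to each other in each library. Read ratios of gene pairs without overlap between the genotypes are common among abundant genes, at 77.0% of all pairs of the 908 genes. That figure was not computed for shares within a class, so none of these shares is read as setting a gene apart. CESA6 took 16.0% and 16.5% of the primary-wall reads in jmj1-1, against 14.6% and 14.3% in Bd21-3. CESA3 took 40.4% and 41.0% in jmj1-1, against 42.4% and 42.3% in Bd21-3. The share of CESA6 was higher and that of CESA3 lower in both jmj1-1 libraries, while the share of CESA1 overlapped, at 43.6% and 42.5% in jmj1-1 and 43.0% and 43.4% in Bd21-3.

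Among secondary-wall reads, CESA7 took 30.6% and 31.0% in jmj1-1, against 32.8% and 32.5% in Bd21-3. CESA8 took 44.4% and 43.4% in jmj1-1, against 42.7% and 42.6% in Bd21-3. CESA4 took 25.0% and 25.6% in jmj1-1, against 24.5% and 24.9% in Bd21-3. The share of CESA7 was lower in both jmj1-1 libraries, and those of CESA8 and, only narrowly, CESA4 were higher. The ratio of CESA4 to CESA8 overlapped between the genotypes, at 0.563 and 0.590 in jmj1-1 and 0.575 and 0.585 in Bd21-3. These shares are of reads and are not corrected for transcript length.

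Of the 9 ratios between a secondary-wall and a primary-wall gene, 4 were higher in both jmj1-1 libraries, 2 were lower in both and 3 overlapped. The 4 higher ratios were those of CESA4 and CESA8 to CESA1 and to CESA3. The 2 lower ones were those of CESA4 and CESA7 to CESA6. Within the classes, 2 of 6 ratios were higher, 3 were lower and 1 overlapped. In all, the genotypes did not overlap at 11 of 15 ratios (73.3%), close to the 77.0% found over all 411778 pairs among the 908 genes, so this number does not set the cellulose synthase genes apart.

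The ratio that differed most was that of CESA3 to CESA6, at 2.53 and 2.48 in jmj1-1 against 2.91 and 2.95 in Bd21-3, a log2 difference of -0.23. Both genes are of the primary wall. CESA3 had the smallest and CESA6 the largest of the 6 log2 changes given above, so this ratio restates those values and is no separate result. The difference between classes that came nearest to it was that of CESA7 to CESA6, at 1.05 and 0.969 in jmj1-1 against 1.17 and 1.15 in Bd21-3, a log2 difference of -0.21.

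**Figure D3:**
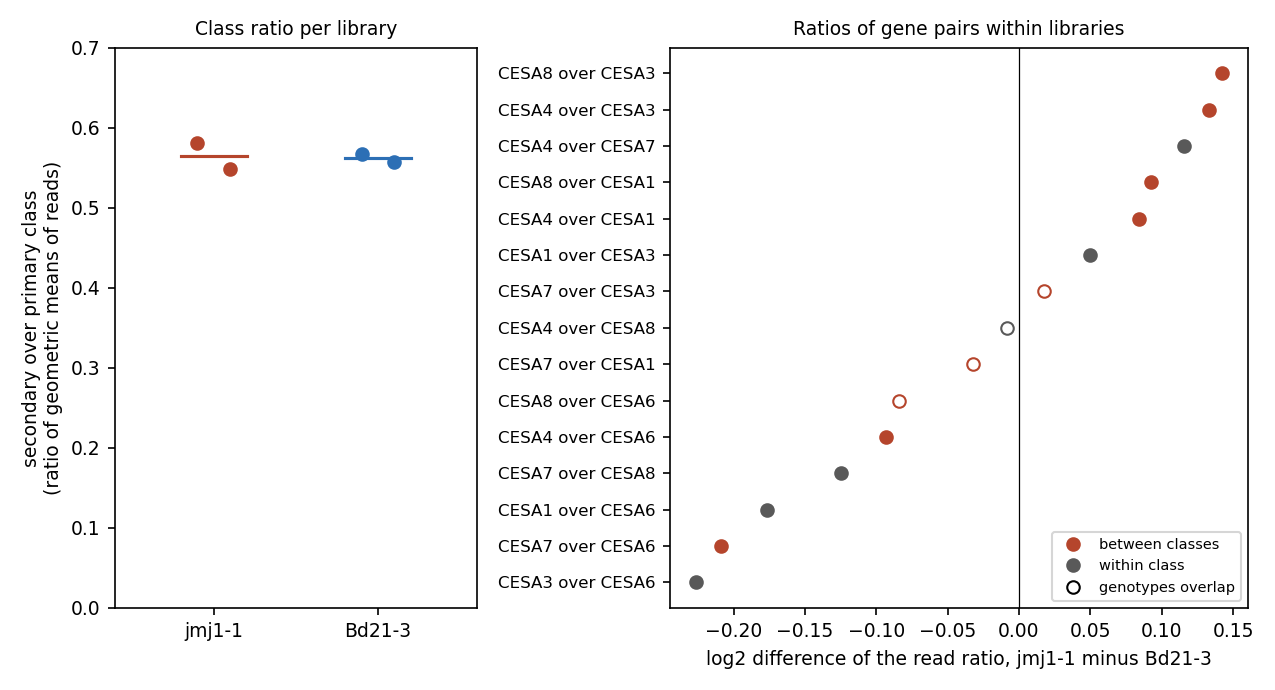
Left, ratio of secondary-wall to primary-wall reads (geometric means over 3 genes each) in each library, jmj1-1 in red and Bd21-3 in blue, with lines at the mean; the ratios overlap near 0.56. Right, log2 difference of the read ratio of each of 15 gene pairs, jmj1-1 minus Bd21-3, with open points where the genotypes overlap; differences run from -0.23 for CESA3 over CESA6 to 0.14 for CESA8 over CESA3, and pairs between and within classes are mixed.

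Both jmj1-1 libraries lay above both Bd21-3 libraries at each gene, so leaving out 1 library could hardly have reversed a rise. TMM factors between 0.98 and 1.02 likewise left little room for a reversal by scaling. The rises kept their direction under every scaling, filter, tool and left-out library tried. CESA4, CESA8 and CESA6 also passed the test in each of these 14 alternatives, with log2 changes of 0.21 to 0.32, 0.21 to 0.35 and 0.31 to 0.41. Their highest adjusted p-values among the alternatives were 0.0088, 0.011 and 8.84e-04. Among all 2978 genes called, 2968 kept call and direction with RLE scaling and 2616 with TMM factors squared. Without the expression filter 1765 did so, and in DESeq2 1283. The scaling that counts library totals alone gave higher values at each of the 6 genes and the squared TMM factors lower ones. The ratios between genes stayed as they were by construction.

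**Figure D4:**
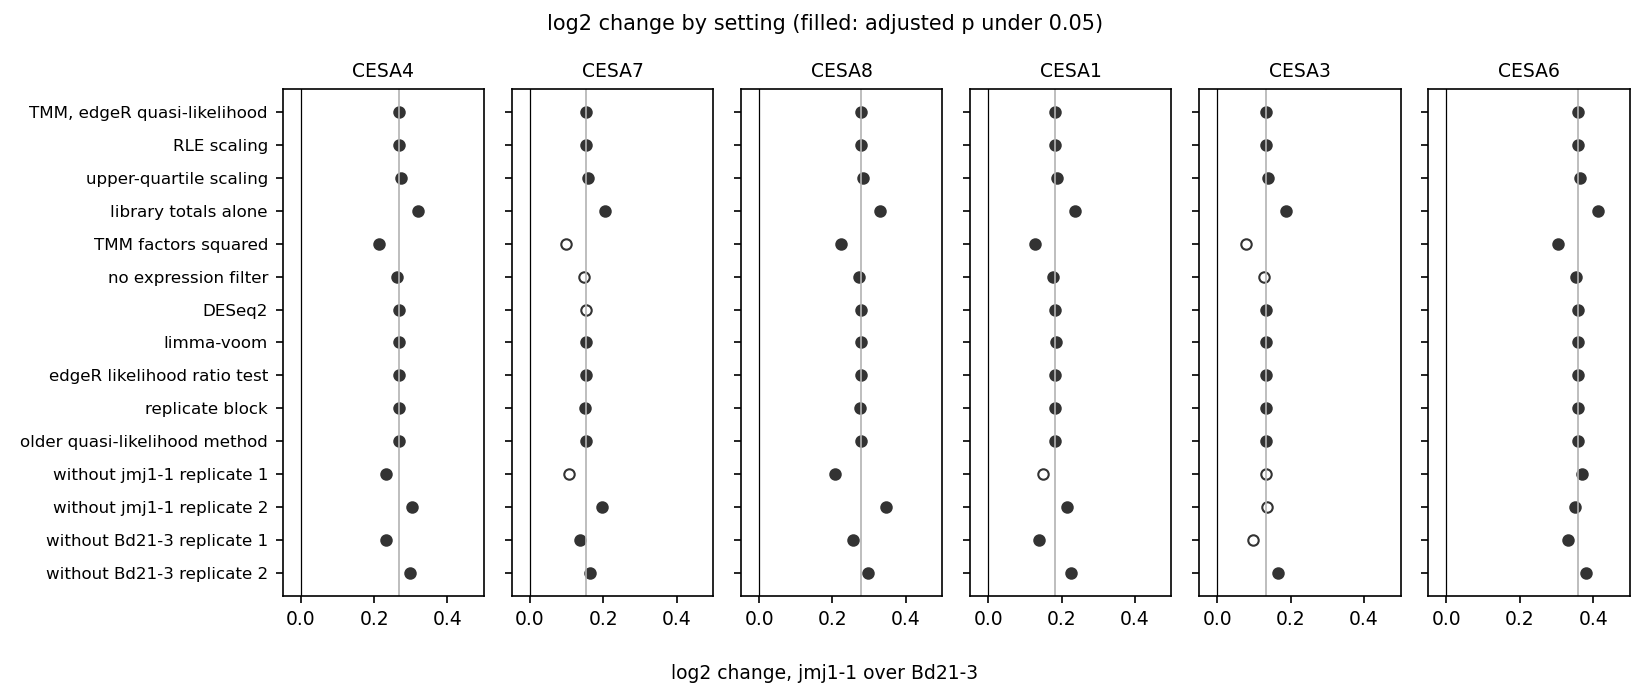
log2 change of each cellulose synthase gene, jmj1-1 over Bd21-3, under TMM scaling with edgeR's quasi-likelihood test and 14 alternatives; filled points passed an adjusted p of 0.05 and open points did not, and the grey line marks the value at the top. Every point lies above 0; open points occur at CESA7, CESA1 and CESA3, the lowest being CESA3 with TMM factors squared, at 0.08.

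Other wall genes were taken from lists of locus numbers that rest on published assignments, which no table used here could verify. Single loci of these lists are therefore not named. Of 13 loci listed for lignin, among them steps of phenylpropanoid and monolignol synthesis and laccases, 10 rose, none fell and 3 did not pass the test, against the 6.13% of all tested genes called higher. The median log2 change was 0.24, within 0.07 to 0.94, and 12 of the 13 had both jmj1-1 libraries above both Bd21-3 libraries, against 25.5% of all tested genes. The number that rose was 7 to 10 over the alternatives, and none fell in any of them. Part of this list had already been seen to be higher in these libraries, so its direction is no independent evidence.

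Of 4 further loci listed as CESA genes, 3 had enough reads to test, 1 rose and 2 did not pass the test. Their log2 changes were -0.07, 0.17 and 0.17. The locus without a test had 0 reads in both jmj1-1 libraries and 2 and 1 in the Bd21-3 libraries. The locus that rose lost its call without jmj1-1 replicate 1, where none of the 3 was called. Its counts were close to those of CESA1 in every library, at 9462 and 7902 reads in jmj1-1 and 7980 and 8260 in Bd21-3, against 9576, 7943, 7955 and 8256 reads for CESA1. The largest difference was 1.19%, and no other locus in the table lay within 2% of CESA1 in all libraries. How the counting assigned reads that match several places is not stated by the sources used here, and its part in these values was not tested.

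The last list held 2 loci, 1 for synthesis of the mixed-linkage glucan of grass walls and 1 for a regulator of wall synthesis. The first was lower, at a log2 change of -0.19 (SE 0.045, edgeR adjusted p = 0.0013). Its level was 347.7 and 330.2 CPM in jmj1-1, against 359.5 and 414.7 CPM in Bd21-3. Its call was lost in DESeq2, without the expression filter, and without Bd21-3 replicate 2 or jmj1-1 replicate 2. The second, at a log2 change of 0.07, did not pass the test (edgeR adjusted p = 0.79).

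The mean profile of CESA4, CESA7 and CESA8 over the 4 libraries was compared with that of 15173 other genes with a mean of at least 5 CPM. Likeness was the Euclidean distance between log2 CPM values centred on each gene's own mean. The nearest were BRADI_1g04790v3 and BRADI_2g06900v3, at distances of 0.0062 and 0.0079. Their log2 changes were 0.23 and 0.23 and did not pass the test (edgeR adjusted p = 0.19 and 0.10), at 221 to 273 and 325 to 402 reads per library. Of the primary-wall genes, CESA1 ranked 130 by this distance, CESA3 ranked 791 and CESA6 ranked 1604. With 15173 genes compared over only 4 libraries, some genes must lie very near any profile. The distance also depends on the size of the log2 change. Neither the nearest loci nor these ranks are therefore read as shared regulation, which was not tested.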

How the data were processed

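The authors deposited unnormalised read counts, 1 row per locus and 1 column per library, with column names that equal the sample titles. Libraries were stranded and made from mRNA, per the labels' protocols. Cutadapt, HISAT2, SAMtools and featureCounts are named in the submitters' processing notes. Not given in the sources used here were the genome build, the annotation, the strand setting and the handling of reads with several matches. Overlapping, antisense or closely related genes could therefore share reads.

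The test was run on the counts with edgeR 4.0.16 in R 4.3.3 (filterByExpr, TMM, two-sided quasi-likelihood F-test of genotype, Benjamini-Hochberg over all tested genes). Standard errors are the absolute log2 change divided by the square root of F. Alternatives used other scalings (upper quartile, RLE, library totals, TMM factors squared, the mirror image of totals), no expression filter, DESeq2 1.42.0, limma-voom (limma 3.58.1), the likelihood ratio test, a replicate block, each library left out and, chosen after seeing the data, edgeR's older quasi-likelihood method. The code was tested on simulated data.

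No label states that the libraries of a genotype are from separate plants, and the p-values may then rest on technical spread alone. Chi-square per degree of freedom between replicates was 1.85 in jmj1-1 and 2.41 in Bd21-3, so no library was a copy. The genes and lists were chosen with earlier results of these data known. Named genes were the 6 members and the 2 loci nearest in profile. Of the identifiers, 0 matched the RefSeq gene table given (assembly Brachypodium_distachyon_v3.0), so sequences, coordinates and leaf markers were not used here. The locus whose counts resembled those of CESA1 was singled out after its values were seen.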

Additional observations from a re-analysis of the deposited data

How the results depend on the processing

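Over the 14 alternatives, none of the 6 cellulose synthase genes changed direction, and 74 of 84 values stayed on the same side of the threshold. A change of direction was hardly possible, as both jmj1-1 libraries lay above both Bd21-3 libraries at each gene. The 84 values all come from the same 4 libraries and are not independent. Of all 2978 genes called, 2616 kept call and direction with TMM factors squared, 1765 without the expression filter and 1283 in DESeq2. With TMM factors squared, CESA7 was at 0.10 and CESA3 at 0.079 (log2), both no longer called, since that scaling lowers jmj1-1. Without the expression filter, CESA7 was at 0.15 and CESA3 at 0.13 and neither was called, the call counts were 1788 in all, 746 higher and 1042 lower, against 2978, 1315 and 1663, and the glucan and regulator list had 0 lower. DESeq2 gave 1283 calls, 515 higher and 768 lower, CESA7 at 0.15 without a call, and 0 lower on that list. With library totals alone 2043 genes were higher, 64.1% of calls, against 44.2% with TMM and 28.1% with TMM factors squared, while the median log2 change of all genes was 0.057, 0.0033 and -0.05. For the filter and DESeq2 the cause was not tested.

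With 1 library left out, the calls numbered 1791 to 2857, 749 to 1237 higher and 1042 to 1620 lower, with the fewest without jmj1-1 replicate 1 and fewer libraries in each fit. The lone library of a genotype is then assumed to vary like the other genotype. CESA7 ranged from 0.11 to 0.20, CESA1 from 0.14 to 0.22 and CESA3 from 0.10 to 0.17. The further CESA list had 0 to 1 higher, the lignin list 7 to 9 higher, and the glucan and regulator list 0 to 1 lower. The class ratio difference of 0.0057 was -0.040 without CESA3 and 0.073 without CESA6. The genotypes no longer overlapped without CESA6, but how often class ratios of other genes do so was not computed. The difference ranged from -0.04 to 0.05 with 1 library left out, and summed reads gave 0.04. Shares per coding kilobase were not run, since no length was matched.

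With the replicate block 3141 genes were called, and each of the 6 genes kept its call, with CESA7 at adjusted p = 0.012 and CESA3 at 0.0092 in edgeR's test. Same-numbered libraries had a correlation of deviations of -0.018, and nothing in the labels pairs them. At 2358 to 9576 reads per library and gene, counting error is small, and 2 libraries per genotype limit the precision.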
